A study of Homo sapiens with 29 samples.

Results

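MAP2K6, also called MKK6, is a kinase that switches on the p38 MAP kinases, and its RNA was followed here in HepG2 cells with and without CCL. HepG2 is a human hepatoblastoma-derived line with many hepatocyte features, and as 1 line it stands for 1 tumour. The series title names the herb Cratoxylum cochinchinense Lour., and the labels call the treatment CCL and give no dose, extract or vehicle for the untreated arm. Total RNA was measured on 29 Affymetrix arrays, 16 of untreated cells and 13 of CCL-treated cells. Untreated cells were taken at 0 h (2 arrays), 6 h (3), 12 h (3), 18 h (2), 24 h (3) and 48 h (3). CCL-treated cells were taken at 6 h (3 arrays), 12 h (3), 18 h (3), 24 h (2) and 48 h (2). The labels number the arrays of a group as set 1, 2 or 3 and do not say whether sets were separate cultures, so each p-value measures only the spread between arrays.

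MAP2K6 is 1 of 14884 genes with a named probe set, and it has 1 probe set among 53617. It was chosen for its low values with CCL on these same arrays. The differences between CCL-treated and untreated cells are therefore a description of the arrays, with no test. Values are on the deposited log2 scale, on which 1 unit is a doubling. The arrays hold RNA of whole cultures, so fewer cells with the RNA and less RNA per cell cannot be told apart, and neither protein nor kinase activity was measured.

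MAP2K6 sits in the middle of a relay of kinases. Stress-activated kinases above it (MAP3K family members such as TAK1 and ASK1) phosphorylate it, and it in turn phosphorylates p38 kinases on a threonine and a tyrosine, a task it shares with MAP2K3 and, under some stresses, MAP2K4. Active p38 acts on transcription factors and on kinases such as MAPKAPK2, which prolong the life of many cytokine and early response RNAs, and dual-specificity phosphatases (DUSPs) switch the relay off. In liver cells p38 is known for its part in responses to oxidative stress and inflammation.

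The gene spans chr17:69414697-69553865 of GRCh38.p14 on the plus strand, a length of 139169 bases. An antisense long noncoding RNA gene, MAP2K6-AS1, lies inside it at chr17:69475254-69485532. It has no named probe set and was not analysed here. RefSeq gives MAP2K6 2 transcription starts 87.6 kb apart, and a single probe set cannot tell their transcripts apart. The 250 bases before each start are shown because they are the sequence next to which MAP2K6 RNA begins, with capitals marking matches to GATAA or TGTTTA in the first and to TATAAA in the second, on either strand. Both are read 5′ to 3′ on the plus strand, from RefSeq.
MAP2K6 start 1, chr17:69414447-69414696: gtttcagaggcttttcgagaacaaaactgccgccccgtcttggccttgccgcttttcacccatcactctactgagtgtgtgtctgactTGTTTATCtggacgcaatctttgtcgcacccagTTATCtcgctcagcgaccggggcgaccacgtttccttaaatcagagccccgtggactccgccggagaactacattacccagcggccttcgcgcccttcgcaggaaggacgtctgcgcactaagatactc
MAP2K6 start 2, chr17:69502012-69502261: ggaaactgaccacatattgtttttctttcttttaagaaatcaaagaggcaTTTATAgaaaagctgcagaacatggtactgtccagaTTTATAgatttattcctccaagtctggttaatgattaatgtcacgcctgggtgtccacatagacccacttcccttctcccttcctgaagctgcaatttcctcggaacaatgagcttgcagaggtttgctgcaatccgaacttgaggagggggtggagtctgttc
The first window had 55.6% G and C and the second 43.2%, beside a median of 58% over the windows of the 35116 starts in the table. GATAA, the core letters read by GATA factors, matched the first window on the minus strand 159 to 155 and 129 to 125 bases before the start. TGTTTA, letters read by forkhead factors, matched it on the plus strand 162 to 157 bases before the start and overlapped the first GATAA match. TATAAA, the letters of a TATA box, matched the second window on the minus strand 200 to 195 and 164 to 159 bases before the start. Of all windows, 20.4% held GATAA, 11% TGTTTA and 10.7% TATAAA on either strand. The letters TGANTCA (an AP-1 site, in 6.57% of windows), TGACG (part of a cAMP response element, 21.2%), CCAAT (32%) and CACGTG (an E-box, 6.34%) were found in neither window. The motifs were chosen with the expression results known, and a match is a string of letters and not a site shown to be used.

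Array medians ran from log2 2.29 (untreated 18 h, set 1) to 3.39 (CCL 18 h, set 3), and the 6 arrays of 12 h lay at 2.51 to 2.54, so the arrays do not share 1 distribution. Hepatocyte markers were high on every array: 8 of 10 listed genes had a named probe set, with values from 6.57 to 12.1, and their summed level ran from 78.8 to 84.7 in untreated and from 79.2 to 82.9 in CCL-treated cells. The fibroblast marker DCN (1.63 to 2.28) and 3 endothelial markers (1.65 to 3.57) stayed under log2 5. Of 2 leukocyte markers, CD14 lay between 2.35 and 4.72 and LYZ, which is not restricted to leukocytes, at 10.3 or higher. No 2 arrays held identical values.

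In untreated cells MAP2K6 RNA lay above log2 5 on every array. Its lowest value over the 16 arrays was log2 5.51, the median 6.46 and the highest 6.85. At 0 h the arrays read 5.59 in set 1 and 6.42 in set 3. At 6 h sets 1, 2 and 3 read 5.88, 5.77 and 6.67, and at 12 h they read 5.51, 5.96 and 6.52. Set 3 was the highest at each of these times. At 18 h the arrays read 6.17 in set 1 and 6.51 in set 3, and at 24 h sets 1, 2 and 3 read 5.86, 6.85 and 6.68. At 48 h the 3 arrays lay close together at 6.68, 6.76 and 6.73. Set 3 had the narrowest range of the untreated sets, 6.42 to 6.73 over 6 arrays, against 5.51 to 6.68 over 6 arrays of set 1.

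In CCL-treated cells the 6 h arrays overlapped those of untreated cells, and every array from 12 h on lay below every untreated array of any time. At 6 h CCL sets 1, 2 and 3 read 6.04, 5.12 and 6.53. At 12 h they read 3.67, 3.84 and 2.63, and at 18 h 3.55, 3.85 and 3.20. All 6 of these arrays lay more than 1 log2 unit under the lowest CCL array at 6 h. At 24 h the CCL arrays read 2.74 in set 1 and 4.46 in set 2, and at 48 h 3.50 in set 1 and 5.42 in set 2. Set 2 was the higher of the pair at both times, and its 48 h array was the single one of 10 CCL arrays after 6 h above log2 5.

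**Figure D1:**
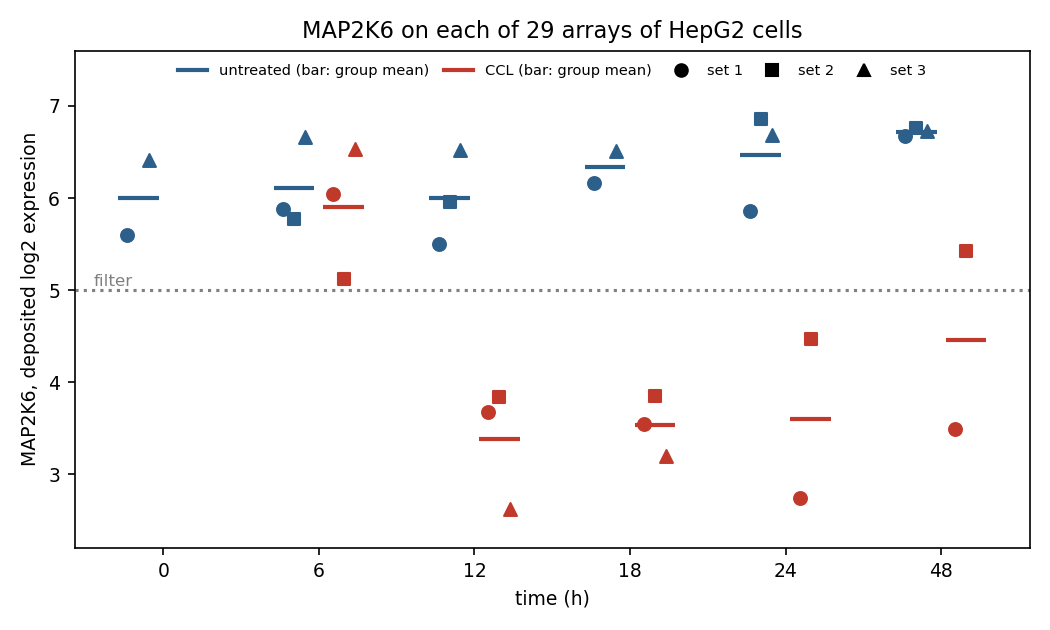
MAP2K6 on each of the 29 arrays (y axis, deposited log2 value) against time in hours (x axis), untreated and CCL-treated cells in separate colours, with a marker shape per set bars at the group means, times spaced evenly and a dotted line at the filter of log2 5. Untreated arrays lie between 5.51 and 6.85 at all times, while CCL arrays overlap them at 6 h and lie between 2.63 and 5.42 from 12 h on.

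Ordered by mean, the 6 untreated groups came first and CCL at 6 h next. The untreated means were 6.72 ± 0.04 at 48 h (SD, n = 3), 6.47 ± 0.53 at 24 h (n = 3), 6.34 ± 0.25 at 18 h (n = 2), 6.10 ± 0.49 at 6 h (n = 3), and 6.00 at both 0 h (SD 0.58, n = 2) and 12 h (SD 0.51, n = 3). The CCL means were 5.90 ± 0.72 at 6 h (n = 3), 4.46 ± 1.36 at 48 h (n = 2), 3.60 ± 1.22 at 24 h (n = 2), 3.54 ± 0.33 at 18 h (n = 3) and 3.38 ± 0.66 at 12 h (n = 3). Every pair of neighbours in this order had arrays that overlapped. The widest step, 1.44, was between CCL at 6 h and CCL at 48 h, whose arrays overlapped only through set 2 (5.12 at 6 h, 5.42 at 48 h), and the next widest was 0.86. Within each array, MAP2K6 lay above 82.0% to 90.7% of all probe sets in untreated cells and above 44.2% to 81.5% in CCL-treated cells after 6 h. Probe sets differ in brightness, so these shares compare arrays and not genes.

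The difference from untreated cells opened between 6 h and 12 h. At 6 h MAP2K6 differed by -0.21 ± 0.46 (log2, SE of the model; 3 arrays in each arm), with overlapping arms. At 12 h the difference was -2.62 ± 0.46 (3 arrays in each arm), a 6.13-fold lower level, and the closest arrays of the arms were 1.67 apart. At 18 h it was -2.80 ± 0.51 (3 CCL and 2 untreated arrays), 6.98-fold lower, with a gap of 2.31. At 24 h it was -2.87 ± 0.51 (2 CCL and 3 untreated arrays), 7.29-fold lower, with a gap of 1.40. At 48 h it was -2.26 ± 0.51 (2 and 3 arrays), 4.80-fold lower, with a gap of 1.26. The mean of the 5 differences was -2.15 ± 0.22, a 4.44-fold lower level. On 2 CCL arrays MAP2K6 lay under the median of all probe sets, at 3.20 against 3.39 (18 h, set 3) and at 2.74 against 2.83 (24 h, set 1). How much of such low values is background is unknown, so the folds hold for the deposited values and not for the amount of RNA.

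Tests and ranks used the 6529 genes that exceeded log2 5 on 2 or more arrays. Among them, MAP2K6 had the lowest difference at 12 h, where the next was GPR119 at -1.94, and at 18 h, where the next was TMT1A at -1.70. At 24 h it was second to ADH6 at -2.90, at 48 h it was in place 7 with TXNIP lowest at -2.70, and at 6 h it was in place 1858. These places are what the gene was chosen for and carry no test. The median difference of all tested genes was -0.06 at 6 h, -0.06 at 12 h, 0.41 at 18 h, 0.04 at 24 h and -0.26 at 48 h. After quantile normalization, which gives every array the same distribution, MAP2K6 differed by -0.13, -2.38, -3.26, -2.95 and -2.14 at these times. Without the 2 arrays of lowest and highest median, the 18 h difference was -2.81.

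**Figure D2:**
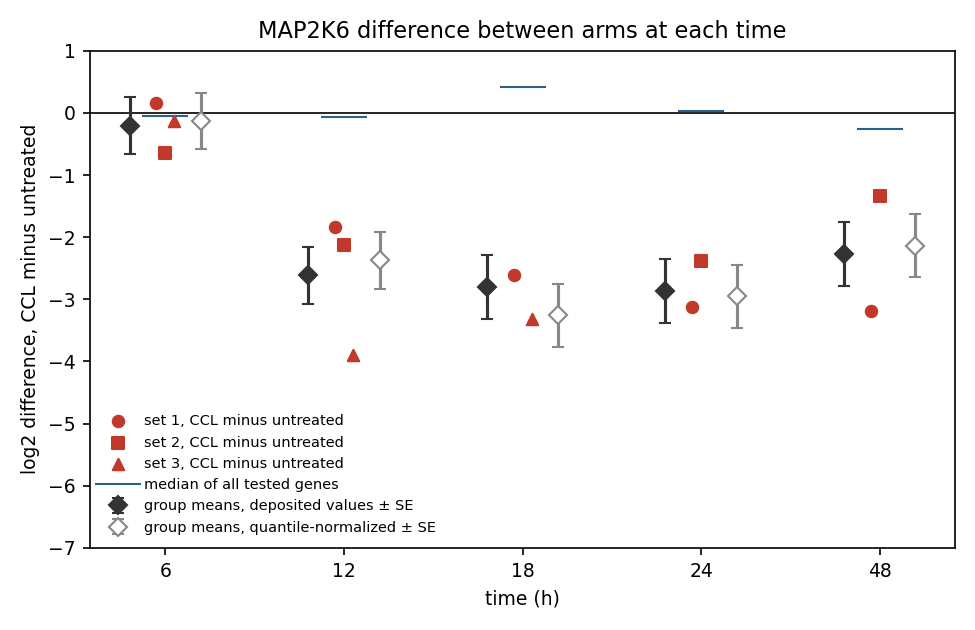
MAP2K6 difference, CCL minus untreated, on the log2 scale (y axis) at each time (x axis): filled diamonds give the deposited values and open diamonds the quantile-normalized ones, each with the SE of the model, coloured symbols the difference within a set, and blue lines the median of all tested genes. The 6 h values straddle 0, and all set differences from 12 h on lie between -3.89 and -1.34.

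Within a set, CCL was lower in 11 of 12 comparisons with the untreated array of the same number and time, and in 9 of 9 after 6 h. At 6 h sets 1, 2 and 3 differed by 0.16, -0.65 and -0.13. At 12 h they differed by -1.83, -2.12 and -3.89. The other set differences were -2.62 (set 1) and -3.31 (set 3) at 18 h, -3.13 (set 1) and -2.39 (set 2) at 24 h, and -3.18 (set 1) and -1.34 (set 2) at 48 h. Averaged over the times after 6 h, the difference was -2.69 in set 1 (4 times), -1.95 in set 2 (3 times) and -3.60 in set 3 (2 times). The sets cover different times, so these 3 means are not matched in time.

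The size of the difference at 48 h depended on which CCL array was kept. CCL set 2 was above CCL set 1 by 1.92 at 48 h and by 1.72 at 24 h. Of the 6529 genes, 189 differed between these 2 CCL arrays at least as far at 48 h and 78 at 24 h, beside median absolute differences of 0.55 and 0.38. In untreated cells MAP2K6 differed between the same sets by 0.08 at 48 h and by 0.99 at 24 h. Without CCL set 2 the difference from untreated cells at 48 h was -3.23, and without CCL set 1 it was -1.30. At 24 h these values were -3.73 and -2.004. With either CCL set alone, the difference from the mean of all untreated arrays was thus smaller at 48 h than at 24 h. Against the untreated array of its own set, set 1 differed by -3.13 at 24 h and -3.18 at 48 h. Set 2 differed by -2.39 and -1.34, so only in set 2 was this difference smaller at 48 h.

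Within the CCL arm, MAP2K6 was lower than at 6 h by -2.52 ± 0.46 at 12 h, -2.36 ± 0.46 at 18 h, -2.30 ± 0.51 at 24 h and -1.44 ± 0.51 at 48 h (log2, SE). The low values of 12 h and later are those for which the gene was chosen, so this time course is a description too and carries no test. At 12 h, 18 h and 24 h all CCL arrays lay below all CCL arrays of 6 h, and at 48 h set 2 did not.

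Time within the untreated arm was tested with limma over all 6529 genes. It gave no call for MAP2K6 over 6 times (moderated F = 0.749, adjusted p = 0.88), in a test that called 0.23% of genes. Against 0 h, untreated cells differed by 0.10 at 6 h, -0.01 at 12 h, 0.33 ± 0.56 at 18 h, 0.46 ± 0.51 at 24 h and 0.72 ± 0.51 at 48 h. From 6 h to 48 h the untreated level differed by 0.62 ± 0.46 (adjusted p = 1), in a comparison that called 0.0153% of genes higher. When noisy arrays were given less weight in limma, the untreated time course was called (F = 6.97, adjusted p = 0.00108), and the estimation of these weights stopped before it converged.

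The other genes of the relay were read from lists of 111 genes, of which 74 had a named probe set and 58 were tested. In the mean CCL effect over 5 times, 23 of the 58 were higher with CCL, 2 were lower and 33 were not called. The higher calls were 39.7% of these genes beside 13.6% of all tested genes, and the lower calls 3.45% beside 11%. The lists were drawn up with earlier results of these data known, so these shares describe the listed genes and carry no test. The median difference was 0.20 over the lists and 0.01 over all tested genes. Of the 23, MAP3K10, DUSP5, DUSP10 and CXCL8 entered the test only through CCL arrays, the arm in which they were higher. Over the 50 genes that passed through either arm, 19 were called higher and the median was 0.19.

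No other MAP2K gene tested was called lower: 1 of 3 rose and 2 were not called. Of all tested genes, 13.6% were called higher and 11% lower. MAP2K3, its closest relative and the other main activator of p38, differed by 0.00 ± 0.14 (adjusted p = 0.998), with group means from 5.66 to 6.39 in untreated and from 5.81 to 6.41 in CCL-treated cells. Its differences by time were 0.06, -0.07, 0.67, -0.44 and -0.22, and its mean difference was -0.02 after quantile normalization. MAP2K1, which activates ERK, rose by 0.44 ± 0.10 (adjusted p = 0.0023). MAP2K5 differed by -0.13 ± 0.12 (adjusted p = 0.468) and exceeded log2 5 on only 4 untreated and 3 CCL arrays. MAP2K4 lay under the filter, with a mean of 4.42 with CCL and 4.37 without. MAP2K2 did too, with a mean of 3.54 with CCL and 3.31 without. MAP2K7 had no named probe set and was not analysed here. No test compared MAP2K6 with these genes, because it was chosen for its own difference.

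Upstream of MAP2K6, 2 of 15 tested genes rose, 2 fell and 11 were not called, with a median difference of 0.02. The shares of 13.3% in either direction are near those of all tested genes (13.6% higher and 11% lower). MAP3K10, 1 of the 2 that rose, entered through CCL arrays only. MAP3K4, a kinase that phosphorylates MAP2K6, fell by 0.44 ± 0.12 (adjusted p = 0.00753). TXN, the thioredoxin that holds ASK1 inactive, rose by 0.38 ± 0.11 (adjusted p = 0.00924). MAP3K5, the gene of ASK1 itself, lay under the filter at means of 2.52 with CCL and 2.39 without, and was not tested. TXNIP, which binds and inhibits thioredoxin, fell by 1.54 ± 0.32 (adjusted p = 0.000846). TXNIP differed by -1.32 at 6 h, where its arms overlapped (4.50 to 6.74 with CCL and 5.81 to 7.90 without). They also overlapped at 24 h (3.74 to 6.47 with CCL and 5.75 to 6.36 without). At 48 h TXNIP differed by -2.70, with CCL arrays at 2.84 and 5.09. Its group means ran from 6.10 to 7.19 in untreated and from 3.96 to 6.09 in CCL-treated cells, so the nearest means of the arms almost met. A second TXNIP probe set, near the bottom of the scale at a mean of 2.00, differed by -0.09.

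Among p38 kinases and their scaffolds, 2 of 4 tested genes rose (50%, beside 13.6% of all tested genes). MAPK13, which encodes p38 delta, rose by 0.87 ± 0.09 (adjusted p = 1.06e-07), with differences of 0.35, 0.94, 1.17, 1.12 and 0.76 from 6 h to 48 h. Its group means ran from 6.66 to 7.05 in untreated and from 7.41 to 7.97 in CCL-treated cells, which do not overlap. SPAG9, a scaffold that binds p38 and JNK, rose by 0.42 ± 0.11 (adjusted p = 0.00696). It differed by 1.03 at 18 h and 0.02 at 48 h, where the median of all tested genes differed by 0.41 and -0.26. Its 2 untreated arrays of 18 h lay apart, at 7.11 and 7.91. MAPK11, p38 beta, lay under the filter at means of 3.51 with CCL and 3.20 without. MAPK14, p38 alpha, had no named probe set and was not analysed here.

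Of 12 tested p38 substrates, 3 rose (25%, beside 13.6% of all tested genes) and 9 were not called, with a median difference of 0.07. MEF2D, a transcription factor, rose by 0.57 ± 0.13 (adjusted p = 0.00144). MAPKAPK2 rose by 0.36 ± 0.11 (adjusted p = 0.0171), and MKNK2, a kinase of the translation factor eIF4E, by 0.34 ± 0.10 (adjusted p = 0.0112). MKNK2 was lower with CCL at 6 h, by -0.34, with arrays at 5.93 to 6.45 against 6.51 to 6.58 without. It differed by 0.13 at 12 h, 0.77 at 18 h, 0.72 at 24 h and 0.40 at 48 h. The calls of MAPKAPK2 and MKNK2 were lost when noisy arrays were given less weight (adjusted p = 0.123 and 0.149). MAPKAPK2 was also not called without the 2 arrays of lowest and highest median (adjusted p = 0.0682).

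Among phosphatases that switch MAP kinases off, 6 of 9 tested genes were called higher (66.7%, beside 13.6% of all tested genes). The other 3 were not called. DUSP5 and DUSP10 of the 6 entered through CCL arrays only, and through either arm it was 4 of 6, with a median difference of 0.51. DUSP5, which acts on ERK, differed by 2.71 ± 0.20, but it exceeded log2 5 on 12 CCL and 0 untreated arrays and so was tested only through the arm where it was high. A second, dim DUSP5 probe set differed by 0.37. DUSP1, which acts on p38 and JNK, rose by 1.20 ± 0.15 (adjusted p = 2.21e-06). DUSP8 rose by 1.14 ± 0.13 (adjusted p = 2.35e-07). DUSP1 differed by 1.55 at 6 h and by 0.95 at 48 h, and MAP2K6 differed by -0.21 at 6 h. DUSP1 group means ran from 6.62 to 7.21 in untreated and from 7.83 to 8.54 in CCL-treated cells.

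In the parallel JNK and ERK arms, 50% and 33.3% of tested genes were called higher, beside 13.6% of all tested genes. The other tested genes of these arms were not called. In the JNK arm 2 of 4 tested genes rose: the transcription factor genes JUN (1.01 ± 0.17, adjusted p = 6.54e-05) and JUND (0.85 ± 0.11, adjusted p = 2.11e-06). In the ERK arm 2 of 6 rose: SPRY4, a feedback inhibitor (1.38 ± 0.16, adjusted p = 3.42e-07), and the kinase ARAF (0.48 ± 0.11, adjusted p = 0.0018). Of 19 cytokine and early response transcripts listed, 5 were tested, and all were called higher (100%, beside 13.6% of all tested genes). CXCL8 entered through 2 CCL arrays only, and through either arm it was 4 of 4, with a median difference of 1.87. LIF rose by 2.27 ± 0.18 (adjusted p = 6.05e-10), the chemokine gene CCL20 by 2.17 ± 0.25 (adjusted p = 3.42e-07) and IER3 by 1.57 ± 0.14 (adjusted p = 1.26e-08).

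**Figure D3:**
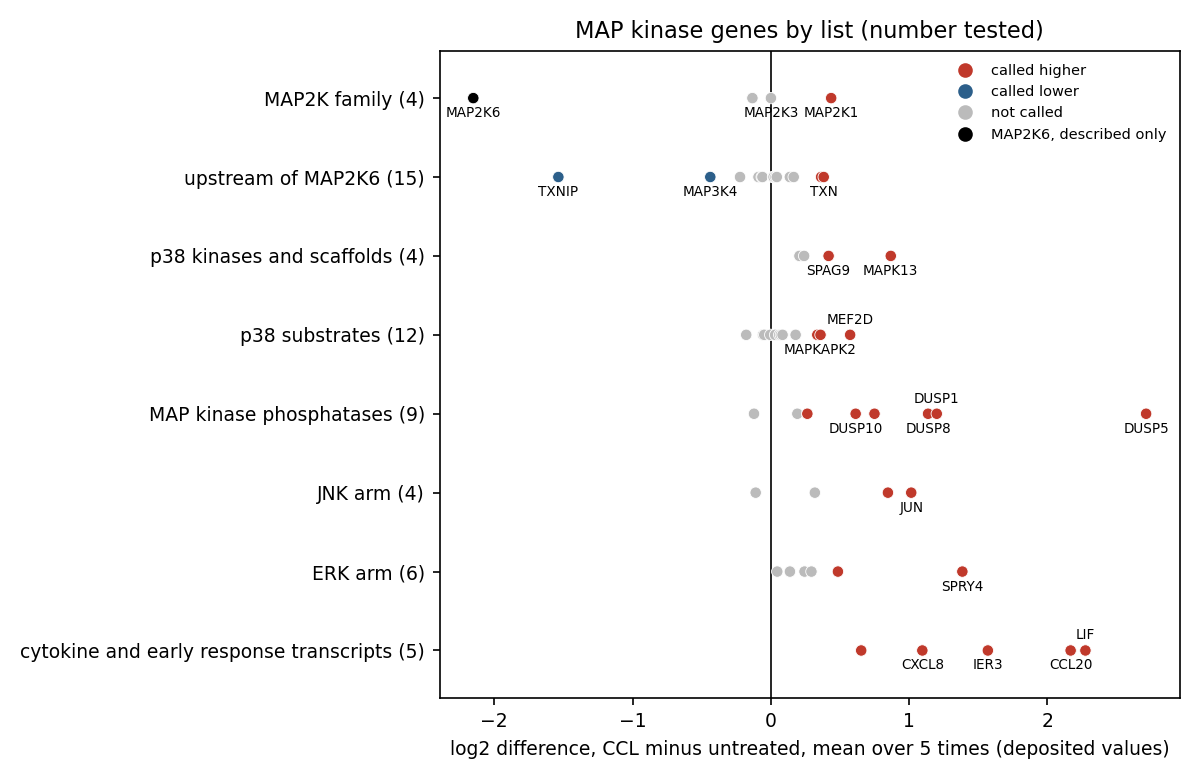
Mean log2 difference over 5 times, CCL minus untreated (x axis), for each tested gene of the relay, grouped by role (y axis, number tested including MAP2K6), coloured by call at adjusted p under 0.05. MAP2K6 lies at -2.15, the only other gene below -1 is TXNIP, and DUSP5, tested through CCL arrays only, lies at 2.71 and LIF at 2.27.

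The genes with the profile most like that of MAP2K6 were found from the root mean square difference between profiles of 11 group means, after quantile normalization and centring of each gene. The nearest 8 of 6528 were TMT1A (0.53 log2 units from MAP2K6), ADH6 (0.54), CHST9 (0.58), ONECUT1 (0.60), ERP27 (0.64), DHRS2 (0.68), GXYLT2 (0.69) and PLPPR1 (0.69). The median over all genes was 1.24, and a gene with the same level in every group would lie at 1.23. ADH6 is an alcohol dehydrogenase and ONECUT1 (HNF6) a liver transcription factor. CHST9 is a sulfotransferase, ERP27 a protein of the endoplasmic reticulum and DHRS2 a short-chain dehydrogenase.

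These 8 genes differed less than MAP2K6 between the arms, with mean differences from -1.42 (ADH6) to -0.85 (PLPPR1). At 6 h ADH6 differed by -0.18, CHST9 by -0.16 and ONECUT1 by -0.03, while TMT1A already differed by -0.49. At 24 h ADH6 reached -2.90 and TMT1A -2.01. ERP27 differed most at 48 h (-2.55), where MAP2K6 differed by -2.26. The same 8 genes were nearest on the deposited values. They were chosen for this likeness on these arrays, so their values are a description.

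The mirror image of the MAP2K6 profile was closest in GPAT3 (0.40), AQP3 (0.45), PAQR5 (0.47), AXL (0.49) and SFN (0.51). GPAT3 makes lysophosphatidic acid, AQP3 is a water and glycerol channel, AXL a receptor tyrosine kinase and SFN the 14-3-3 sigma protein. Their mean differences ran from 1.78 (SFN) to 2.13 (PAQR5). At 6 h they were already apart from untreated cells by at least 0.81 (PAQR5), where MAP2K6 differed by -0.21. On the deposited values 3 of these 5 were among the nearest 5.

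**Figure D4:**
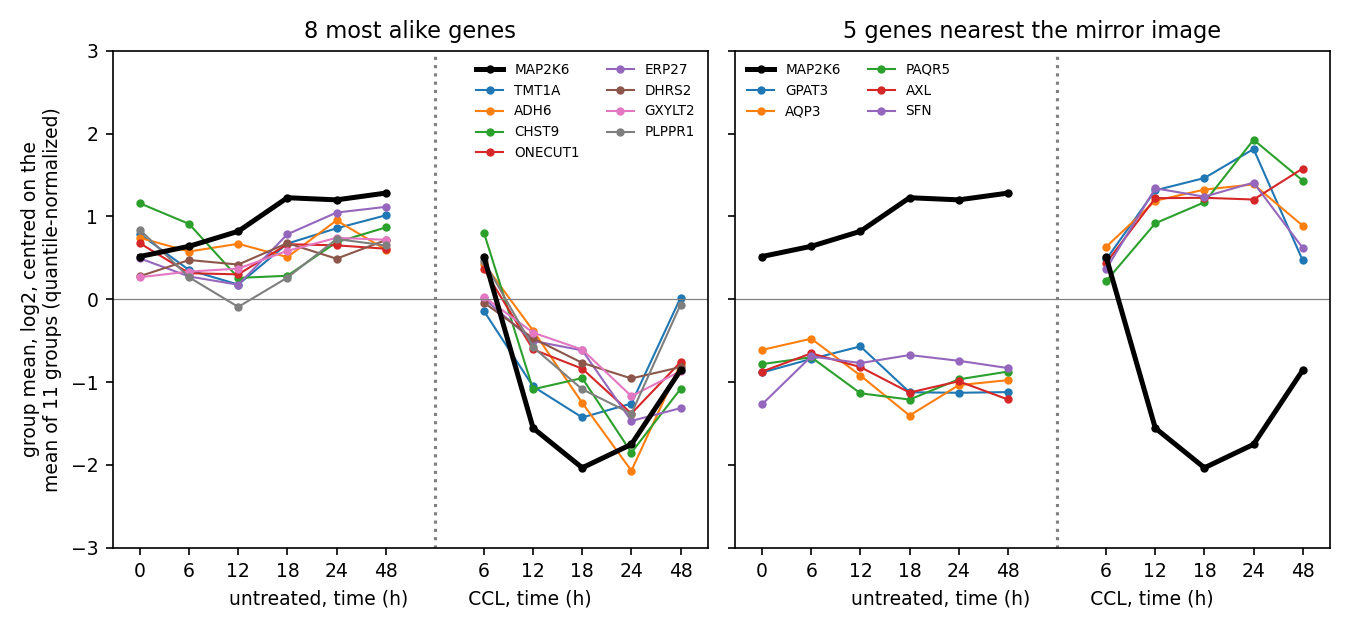
Group means of MAP2K6, of the 8 genes with the most similar profile and of the 5 closest to its mirror image (y axis, quantile-normalized log2 value minus the gene's mean over 11 groups) in each of the 11 groups (x axis). MAP2K6 runs from 1.28 in untreated cells at 48 h to -2.03 in CCL-treated cells at 18 h, while the mirror genes lie below 0 in every untreated group and above 0 in every CCL group, as MAP2K6 does among CCL groups at 6 h alone.

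Genes near MAP2K6 on chromosome 17 did not share its direction where they were called. ARSG, an arylsulfatase gene 963 kb before it, rose by 0.91 ± 0.12 (adjusted p = 3.38e-06). LINC00673, a long noncoding RNA 2849 kb after it, rose by 0.95 ± 0.09 (adjusted p = 8.88e-08). SOX9, a transcription factor gene 2567 kb after it, differed by -0.33 ± 0.13 and was not called (adjusted p = 0.0689). The SEs of these neighbours come from a fit without the filter, in which the SE of MAP2K6 was 0.223, beside 0.220 with the filter. MIR4524A, MIR635 and KCNJ2-AS1 lay under the filter, with highest arrays of 1.94, 4.33 and 2.66. These are the nearest 3 genes with a named probe set on either side, and genes between them without one were not analysed here.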

How the data were processed

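Total RNA of HepG2 cells was measured on 29 Affymetrix arrays. The submitters' processing notes name RMA and Affymetrix Expression Console 1.1 as the tools behind the deposited log2 values, which were analysed unchanged unless stated. Which arrays were normalized together is not given in the sources used here. Probe sets were named from the platform's table, with symbols updated by gene ID to RefSeq (GRCh38.p14) for all 16098 that had 1 symbol. Of several probe sets of a gene, the one with the highest mean stood for it. The 6529 genes that exceeded log2 5 on 2 or more arrays were fitted with limma 3.58.1 in R 4.3.3, with 1 mean per group over all 29 arrays, after the script was tested on simulated data. Two-sided p-values were adjusted over all genes tested (Benjamini-Hochberg), and a gene was called at adjusted p under 0.05. The number of arrays limits the precision.

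MAP2K6, the gene lists and the tests were chosen with earlier results of these data known. Besides MAP2K6, a rule named MAP2K3, MAP2K4, MAPK11, MAPK13, MAPK14 and MAPKAPK2 whatever they showed. It added the largest 3 called of each list, the 8 most similar and 5 mirror profiles, and the nearest 3 neighbours on either side. Further listed genes are named only where they limit a count or a reading. The CCL time courses were planned as tests and are given without p-values, since their low values led to the choice of the gene. Other normalization, filters, array weights and probe set rules, set as a block, and leaving out each array were tried.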

Additional observations from a re-analysis of the deposited data

How the results depend on the processing

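Without 1 array in turn, the MAP2K6 difference stayed negative at 12 h (-2.86 to -2.24), 18 h (-2.98 to -2.63), 24 h (-3.73 to -2.004), 48 h (-3.23 to -1.30) and in the mean (-2.34 to -1.96). At 6 h it ran from -0.53 to 0.18, and it was above 0 without untreated 6 h set 3 (0.07) and without CCL 6 h set 2 (0.18). The F of the CCL time course (10.1, a description) ran from 6.16 (without CCL 6 h set 3) to 14.2, and the 48 h minus 6 h difference with CCL from -2.40 (without CCL 48 h set 2) to -0.48. The CCL F was 8.1 when CCL arrays were fitted alone, and the untreated F 6.97 with array weights. Calls among the listed genes ran from 21 to 28 higher and 2 to 3 lower without 1 array, and 1 was lower with the mean of all probe sets of a gene, where TXNIP's dim probe set counts too. Leaving out both 18 h arrays of lowest and highest median, a setting chosen after seeing the data, left 20 higher and 3 lower.

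Set numbers could pair arrays: residuals of same-numbered arrays correlated above 0.1 in 9 of 12 pairs (-0.0657 to 0.444). The array of the same set was the best correlated in 7 of the 12, so pairing was not established. With set as a replicate block the mean difference was -2.14, and 24 listed genes were higher and 2 lower. MAP2K3, 0.00 as reported and not called under any setting, was -0.018 after quantile normalization, -0.039 after shifting the array medians, -0.013 with the block, -0.11 with array weights, -0.10 without both 18 h arrays and -0.10 to 0.10 without 1 array. Of the values recomputed under settings other than leaving out 1 array, 277 counted as the same. This count includes entries that could not move. The filters, the mean of all probe sets and fitting only the arrays compared cannot change a MAP2K6 difference between arms. Another 4 no longer passed the threshold, 1 newly passed it, 1 moved and 5 changed sign. Those 4 include the CCL time course of MAP2K6 fitted on CCL arrays alone, which is a description here. A MAP2K6 difference between arms counted as the same if it kept its sign and moved by less than the pooled SD of 0.64. A count was the same within a ratio of 1.5, and a tested value if it kept its direction and its side of the threshold. The values are 1 probe set's, without detection calls, so nearness to background could not be judged.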
